A study of Mus musculus with 2 samples.

Results

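The genes described here encode the integrins, the receptors that tie cells to the matrix and to each other, and the adaptor proteins that bind their cytoplasmic tails. The set was chosen by gene symbol: 18 integrin alpha chains, 8 beta chains and 10 adaptors (talins, kindlins, parvins, Ilk and Lims1), 36 of the 24319 rows of each deposited table, and all 36 were listed. RNA was sequenced from lymphatic endothelial cells (LECs) of embryonic skin at E15.5 (embryonic day), strain C57BL/6, in 2 libraries. The control library was labelled wild type. The other was labelled Dot1l knockout, and the labels describe its deletion as endothelial (Dot1lΔEC), with the allele, the Cre driver and the purification of the cells not given in the sources used here. Dot1l encodes the enzyme that methylates lysine 79 of histone H3. A culture protocol for dermal LECs also stands in the labels, which do not say if it applies to the RNA sequenced. Each library was made from RNA pooled from 2 to 3 biological replicates, so there is 1 library per genotype, no spread between replicates and no test. Every difference below compares these 2 libraries and has no replicate check.

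An integrin is a pair of 1 alpha and 1 beta chain. The alpha chain largely sets the ligand: some alpha chains bind collagens, some laminins, some the RGD motif of fibronectin and vitronectin, and those of the beta2 family bind counter-receptors on other cells. Talin and kindlin bind the beta tail and switch the receptor to its active form, and the complex of ILK, PINCH (Lims1) and parvin links it to actin. In lymphatic endothelium the alpha9 chain is known for its part in valve formation, and beta1 integrins for sensing stretch during vessel growth.

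Values are FPKM (fragments per kilobase and per 1000000 mapped), which are per length and so can be set side by side between genes. Folds are ratios of FPKM. Differences are on the log2(FPKM + 1) scale, library labelled knockout minus control, which understates the change of low genes, and a gene is called higher or lower where that difference reaches 2-fold and the gene has at least 1 FPKM in at least 1 library. The deposited values summed to 415537 FPKM in control against 530294 in the library labelled knockout. The depth is not stated. The steps between low values imply about 10300000 fragments in control and 9190000 in the other library, if nothing further was scaled. Dot1l itself was 5.86 FPKM in control against 10.4 in the library labelled knockout, 1.77-fold higher. This value covers the whole gene and does not check the label.

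The cell type on the label was checked against marker lists. Of 9 lymphatic markers, 8 reached 10 FPKM in control against 6 in the library labelled knockout. Ccl21a was 0.538 FPKM in control and listed at 0 in the other. The 11 pan-endothelial markers summed to 1379 FPKM in control against 291 in the library labelled knockout. The 10 fibroblast markers summed to 4043 and 951, the 10 pericyte and smooth muscle markers to 207 and 32.2, and the 10 keratinocyte markers to 205 and 97.3. The 6 genes of all leukocytes summed to 4.46 and 500.0 FPKM, the 11 macrophage markers to 47.6 and 2827, and the 10 mast cell and basophil markers to 105 and 12991. All 27 genes of these blood cell lists were at least 2-fold higher. Neither library was thus purely endothelial. Both held stromal, keratinocyte and blood cell transcripts. The blood cell sums were far higher in the second library, called the library labelled knockout throughout. Fewer cells of a type and less RNA per cell cannot be told apart in such bulk RNA.

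The members went both ways. Of 30 members that reached 1 FPKM in at least 1 library, 10 were called higher, 9 were called lower and 11 lay within 2-fold. Here and below, within 2-fold refers to the log2(FPKM + 1) scale of the calls. As ratios of FPKM, Fermt1 (4.29-fold lower) and Parvb (2.06-fold higher) among the 11 exceeded 2-fold. Among all 13296 genes at that minimum, 16.8% were higher and 15.5% lower. Of the 10 higher members 6 were under 1 FPKM in control and passed the minimum only through the other library, so a difference was built into their passing. Of the 9 members made mainly by blood cells (the 5 leukocyte alpha chains, Itgb2, Itgb7, Fermt3 and Parvg, grouped with their values known) 6 were measured and all 6 were called higher. Of the other 24 measured members 9 were called lower, 4 higher and 11 lay within 2-fold. The other 6 members (Itga10, Itga11, Itgad, Itgae, Itgax and Itgb6) stayed under 1 FPKM in both libraries. The median difference was -0.19 for the 30 genes and -0.04 for all 36, beside 0.00 for all genes tested. Among the 13 members at 10 FPKM or more in control, 2 were higher and 5 lower, with a median of -0.42. Of the 6287 genes at that control level 7.79% were higher and 17.2% lower, with a median of -0.09. With both libraries brought to a sum of 1000000, 9 members were higher and 11 lower, beside 14.3% and 25% of all genes, and the median of all genes moved to -0.33.

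**Figure D1:**
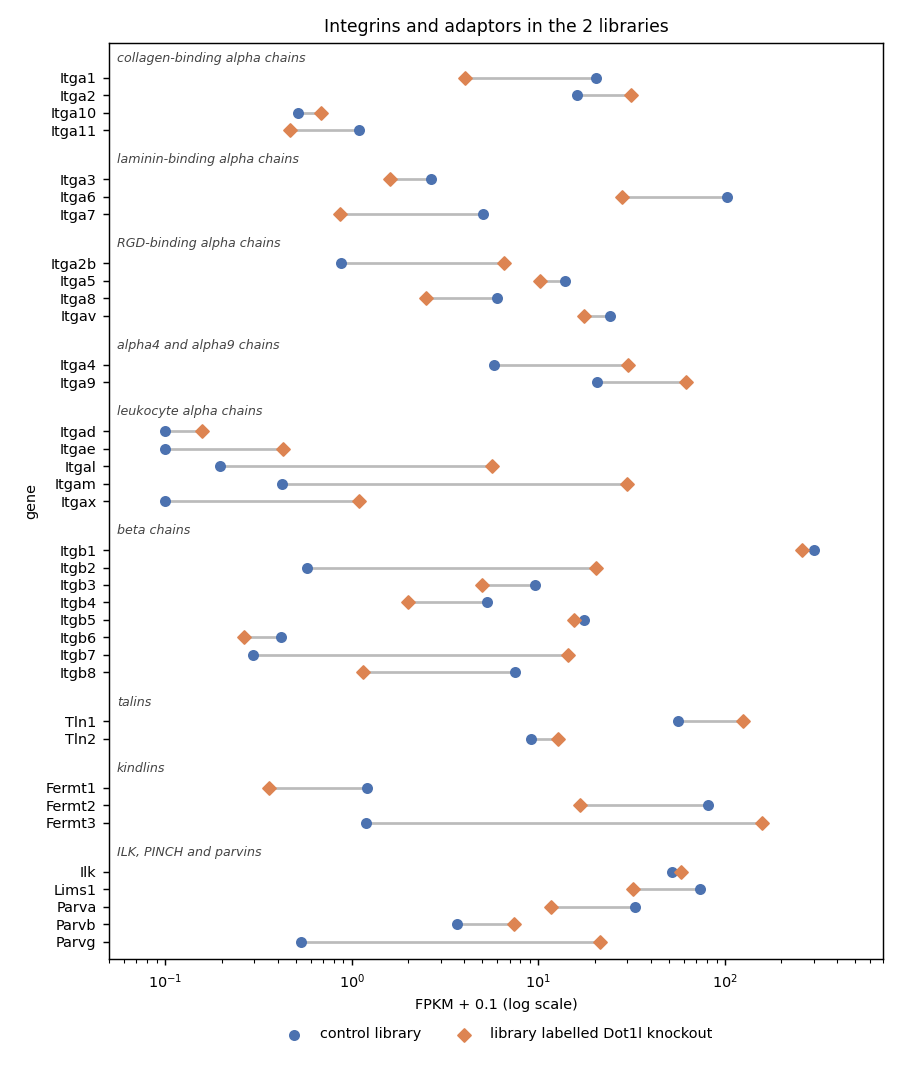
FPKM of the 36 members in the control library (circles) and the library labelled Dot1l knockout (diamonds), by role, on a log axis with 0.1 added. The widest gaps are those of Fermt3, Itgam, Itgb7, Itgal, Parvg and Itgb2, which lie near or under 1 FPKM in control, while Itgb1, Itgb5 and Ilk almost coincide.

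Among the collagen receptors the alpha1 and alpha2 chains went opposite ways. Itga1, which prefers the collagen IV of basement membranes, was 20.3 FPKM in control against 3.94 in the library labelled knockout, 5.17-fold lower (log2 difference -2.11). Itga2, which prefers fibrillar collagens and is also made by mast cells and platelets, was 15.9 and 31.2 FPKM. That is 1.96-fold higher, just short of the call at a log2 difference of 0.93. Control therefore held more Itga1 than Itga2, and the other library more Itga2 than Itga1. The fibroblast chain Itga11 was 0.994 and 0.366 FPKM and the cartilage chain Itga10 0.417 and 0.582, and neither reached 1 FPKM in either library.

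All 3 laminin-binding alpha chains were listed lower in the library labelled knockout, under each of the scalings tried. Itga6, the alpha chain that endothelium and basal keratinocytes use on laminin, was 102 FPKM in control, second only to Itgb1 among the members, against 28 in the library labelled knockout. It was 3.65-fold lower, with a log2 difference of -1.83. Itga7, best known in muscle and also made by vessel wall cells, was 4.94 and 0.764 FPKM, 6.46-fold lower (-1.75). Itga3 was 2.54 and 1.51 FPKM, within 2-fold at -0.50. In the same library pan-endothelial markers were lower (11 of 11, median -2.39), as were fibroblast markers (9 of 10, median -1.94) and pericyte and smooth muscle markers (10 of 10, median -2.56). The part these markers have in the laminin receptor values was not tested.

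Of the 4 RGD-binding chains 1 was called higher, 1 lower and 2 lay within 2-fold. Beside the 16.8% higher and 15.5% lower of all genes tested, so few calls say little about the group. Itgav, the chain shared by the vitronectin receptors, was 24.1 FPKM in control against 17.5 in the library labelled knockout, and Itga5, the fibronectin receptor chain, was 13.7 and 10. Both lay within 2-fold, at log2 differences of -0.44 and -0.42. Itga8, a chain of mesenchymal cells, was 5.87 and 2.41 FPKM, just inside the call at -1.01. Itga2b, the platelet chain, which mast cell and megakaryocyte progenitors also make, was 0.774 and 6.41 FPKM, 8.28-fold higher (2.06). Of 8 platelet and megakaryocyte markers only Gp1ba (0.153 and 1.88 FPKM) and Ppbp (0.673 and 18.5) reached 1 FPKM, in the library labelled knockout. Gp6 was listed at 0 in both libraries, and Gp9 was 0.819 and listed at 0.

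Both members of the alpha4 and alpha9 pair, which share sequence and the ligand VCAM-1, were higher in the library labelled knockout. Itga9 was 20.5 FPKM in control against 61.7 in the library labelled knockout, 3.01-fold higher (1.54). Itga4, a chain of leukocytes and mast cells that also occurs on some endothelium, was 5.67 and 30.2 FPKM, 5.33-fold higher (2.23). Itga9 was thereby the most abundant alpha chain of the library labelled knockout and Itga4 the third. Both directions were kept under every pseudocount and scaling tried. Their ligands went several ways: Emilin1, a ligand of alpha9 in lymphatic valves, was 26.7 and 19.2 FPKM, Tnc 44.9 and 50.4, and Vcam1 23.3 and 17. Svep1, a further alpha9 ligand of lymphatic vessels, was 4.98 and 1.6 FPKM, which was called lower (-1.20). Fn1, whose EDA form alpha9 binds, was 116 and 147 FPKM, and Spp1, the osteopontin that both chains bind, was 0.961 and 32.9. In the same library 7 of the 8 measured lymphatic markers were at least 2-fold lower (median -2.25), with Lyve1 at 526 and 552 FPKM, and all 10 mast cell and all 11 macrophage markers were higher (medians 5.79 and 6.18). The part these cells have in the 2 values was not tested.

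The leukocyte chains were close to absent from control. Itgam, the alpha chain of Mac-1 on macrophages and neutrophils, was 0.322 FPKM in control against 29.6 in the library labelled knockout, 91.8-fold higher (4.53). Its beta partner Itgb2 was 0.472 and 20.1 FPKM, 42.7-fold higher (3.84). Itgal, which pairs with Itgb2 to form LFA-1, was 0.0957 and 5.5 FPKM, 57.5-fold higher (2.57). These low control values rest on about 15 fragments for Itgam, 13 for Itgb2 and 5 for Itgal by the estimated depth, so their folds are rough. Itgax, the chain of dendritic cells and some macrophages, was listed at 0 in control and was 0.99 FPKM in the library labelled knockout. Itgad was listed at 0 in control and was 0.0575 FPKM in the other library, about 2 fragments. Of 8 neutrophil markers listed, 5 were measured, of which 4 were called higher and 1 lay within 2-fold. S100a9 was 1.63 FPKM in control against 205 in the library labelled knockout, and S100a8 was 3.98 and 104. Retnlg was listed at 0 in control and was 30.6 in the other library. Mpo was 0.783 and 1.56, within 2-fold, and Elane was listed at 0 in both. The part of each leukocyte type in these integrin values was not tested.

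The beta7 chain went the same way as beta2. Itgb7, which pairs with alpha4 in the homing receptor of lymphocytes and mast cell progenitors and with alphaE, was 0.195 FPKM in control against 14.3 in the library labelled knockout, 73.2-fold higher (3.68). Its control value rests on about 5 fragments. Itgae, the other partner of beta7, was listed at 0 in control and was 0.329 FPKM in the other library, about 11 fragments, so there Itgb7 stood beside 30.2 FPKM of Itga4. Of 11 lymphocyte markers 8 were under 1 FPKM in both libraries, with Cd8a and Ms4a1 listed at 0 in both. The other 3 were higher in the library labelled knockout: Cd4, which some macrophages also make, was 0.133 and 9.77 FPKM, Il7r 0.224 and 2.76, and Nkg7 was listed at 0 in control and was 5.28. Among mast cell markers of the library labelled knockout Cma1 was 5706 FPKM and Cpa3 4211, against 46.2 and 35.8 in control. Which cells carried Itgb7 was not tested.

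The start regions of the 2 blood cell chains with the largest folds among those in the RefSeq promoter table are shown because both genes were so much higher in the library labelled knockout. Each window runs from 250 bases before to 50 bases after the annotated start, 5′ to 3′ on the gene's strand (RefSeq, build GRCm38.p6). Itgam lies at chr7:128062390-128062689 on the plus strand and Itgb7 at chr15:102231886-102232185 on the minus strand. Capitals mark GAGGAA or its complement TTCCTC, a purine-rich core bound by the myeloid factor PU.1, and TGTGGT or its complement ACCACA, a core bound by RUNX factors. The marked matches do not overlap.
Itgam: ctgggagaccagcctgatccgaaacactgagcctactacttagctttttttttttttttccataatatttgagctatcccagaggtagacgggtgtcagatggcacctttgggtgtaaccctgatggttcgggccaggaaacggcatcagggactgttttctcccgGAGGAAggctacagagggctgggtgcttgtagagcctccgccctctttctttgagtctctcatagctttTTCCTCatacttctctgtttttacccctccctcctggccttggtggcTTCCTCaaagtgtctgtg
Itgb7: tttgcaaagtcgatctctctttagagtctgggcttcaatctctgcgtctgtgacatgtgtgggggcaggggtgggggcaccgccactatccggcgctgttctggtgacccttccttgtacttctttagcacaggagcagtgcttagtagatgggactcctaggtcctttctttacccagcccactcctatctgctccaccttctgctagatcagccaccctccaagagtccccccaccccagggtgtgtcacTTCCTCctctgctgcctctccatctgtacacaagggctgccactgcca
Itgam held 3 matches of GAGGAA and Itgb7 held 1, and neither held TGTGGT. Of all 32851 windows in the table, 28.3% held GAGGAA and 16.8% held TGTGGT on either strand, so single matches are common. Among the 6 windows of the 5 blood cell members in the table (Itgam, Itgax, Itgb7, Fermt3 and Parvg), 3 held GAGGAA and 3 held TGTGGT. Among the 26 windows of 21 other members, 9 held GAGGAA and 4 held TGTGGT. Spi1, which encodes PU.1 and is 1 of the 6 leukocyte marker genes, was 0.173 FPKM in control against 29.8 in the library labelled knockout. Whether PU.1 acts on any of these genes was not tested.

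The remaining beta chains were near equal or lower. Itgb1, the common partner of 12 alpha chains, was the most abundant member in both libraries, with 298 FPKM in control against 257 in the library labelled knockout (-0.21), above 98.6% and 98.0% of all tested genes. Itgb5, a vitronectin receptor chain, was 17.4 and 15.3 FPKM (-0.17). Itgb8, which with alphaV activates latent TGF-beta, was 7.39 and 1.04 FPKM, 7.09-fold lower (-2.04). Itgb4, the hemidesmosome chain that pairs with alpha6, was 5.18 and 1.89 FPKM, 2.74-fold lower (-1.10). Itgb3, the chain of angiogenic vessels, platelets and osteoclasts, was 9.43 and 4.86 FPKM, which missed the call at -0.83. The epithelial chain Itgb6 was 0.314 and 0.165 FPKM. In the same library 5 of 10 keratinocyte markers were at least 2-fold lower (median -0.98). The part of keratinocytes in the beta chain values was not tested.

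Shares within a library do not depend on how the libraries were scaled against each other. The alpha chains summed to 218 FPKM in control against 231 in the library labelled knockout, and the beta chains to 338 and 315. Unlike the shares, these totals depend on that scaling, and all genes summed to 415537 and 530294 FPKM. The totals were near equal as deposited, while the make-up differed. Itga6 made up 46.8% of the alpha chain sum in control against 12.1% in the library labelled knockout. Itga9 made up 9.38% and 26.7%, Itga4 2.6% and 13.1%, Itga2 7.28% and 13.5%, and Itgam 0.147% and 12.8%. By ligand class the laminin-binding chains took 50.2% of the alpha sum in control against 13.1% in the library labelled knockout. The alpha4 and alpha9 chains together took 12% and 39.8%, the leukocyte chains 0.191% and 15.8%, the collagen-binding chains 17.2% and 15.6%, and the RGD-binding chains 20.4% and 15.7%. Among beta chains Itgb1 took 88.1% and 81.7%, Itgb2 0.139% and 6.39%, and Itgb7 0.0577% and 4.53%.

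**Figure D2:**
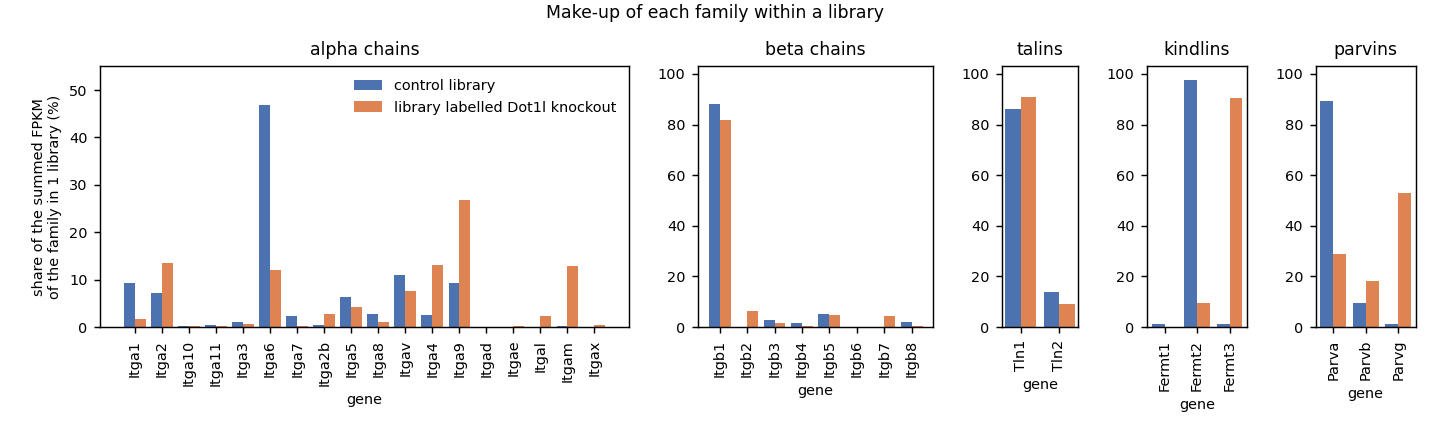
Share of each gene in the summed FPKM of its family, in percent, in the control library and the library labelled Dot1l knockout; the axis of the alpha chains ends lower than the others. Itga6 leads the alpha chains in control and Itga9 in the library labelled knockout, and Fermt2 leads the kindlins in control and Fermt3 in the library labelled knockout.

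The chains were also read as pairs. Of 24 known alpha and beta pairs, both chains reached 1 FPKM for 14 in control and for 17 in the library labelled knockout, with 13 in common. The pair in control alone was Itga7 with Itgb1. The pairs in the library labelled knockout alone were Itga2b with Itgb3, Itga4 with Itgb7, and Itgal and Itgam with Itgb2. Each of these had a chain that missed the minimum in control. The control values were 0.774 for Itga2b, 0.195 for Itgb7, 0.0957 for Itgal, 0.322 for Itgam and 0.472 for Itgb2. These pair counts therefore restate the single-gene levels, and no share over other gene pairs was set beside them. For all beta1 pairs the alpha chain was the lower one in both libraries: the 12 alpha chains that can pair with beta1 summed to 217 FPKM in control, against 298 of Itgb1, and to 188 in the library labelled knockout, against 257. The 4 partners of beta2 summed to 36.1 FPKM in the library labelled knockout, against 20.1 of Itgb2, and Itgam alone exceeded it with 29.6. RNA levels do not show which pairs were formed at the protein level.

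The leading kindlin differed between the libraries. Fermt2, kindlin-2, the form of endothelium, stroma and muscle, was 80.7 FPKM in control against 16.7 in the library labelled knockout, 4.84-fold lower (-2.21). Fermt3, kindlin-3, the form of blood cells, was 1.09 and 158 FPKM, 144-fold higher (6.25), the largest difference of all members. Its control value rests on about 27 fragments, so the fold is rough. Fermt1, the epithelial form, was 1.1 and 0.257 FPKM, 4.29-fold lower, which missed the call on the log2 scale at -0.74. Within the family Fermt2 took 97.4% of the kindlin sum in control against 9.54% in the library labelled knockout, and Fermt3 1.32% and 90.3%. The sum of the 3 kindlins as deposited was 82.9 FPKM in control against 175 in the other library. This total depends on the scaling of the libraries, in which all genes summed to 415537 and 530294 FPKM.

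The start regions of the 2 kindlins are shown because the genes differed in opposite directions; windows and capitals are as for Itgam. Fermt2 lies at chr14:45530016-45530315 and Fermt3 at chr19:7019420-7019719, both on the minus strand (RefSeq, build GRCm38.p6).
Fermt2: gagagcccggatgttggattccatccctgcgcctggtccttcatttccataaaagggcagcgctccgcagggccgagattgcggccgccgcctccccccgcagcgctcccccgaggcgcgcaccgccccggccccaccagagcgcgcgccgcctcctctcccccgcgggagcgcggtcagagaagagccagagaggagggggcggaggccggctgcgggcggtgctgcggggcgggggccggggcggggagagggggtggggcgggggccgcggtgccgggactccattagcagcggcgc
Fermt3: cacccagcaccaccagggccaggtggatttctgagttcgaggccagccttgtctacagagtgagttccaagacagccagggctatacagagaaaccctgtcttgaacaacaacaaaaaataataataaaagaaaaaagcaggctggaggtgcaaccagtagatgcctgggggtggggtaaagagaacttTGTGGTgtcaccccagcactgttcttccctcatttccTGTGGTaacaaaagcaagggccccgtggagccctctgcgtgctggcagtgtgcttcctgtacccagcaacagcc
The Fermt2 window held no GAGGAA and no TGTGGT, and the Fermt3 window held 2 matches of TGTGGT. They differ in base composition: Fermt2 is 76.7% G and C with 37 CpG dinucleotides, and Fermt3 52.3% with 3. The median of all windows in the table was 52.7% G and C with 7 CpG. A match describes the letters of the window and not a bound site.

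The parvins, which couple ILK to actin, also had another leading gene in each library. Parva, the widely expressed form, was 32.9 FPKM in control against 11.6 in the library labelled knockout, 2.82-fold lower (-1.42). Parvg, the form of blood cells, was 0.433 and 21.2 FPKM, 48.9-fold higher (3.95), its control value resting on about 11 fragments. Parvb was 3.54 and 7.31 FPKM, a ratio of 2.06 that missed the call on the log2 scale at 0.87. Parva made up 89.2% of the parvin sum in control against 29% in the library labelled knockout, and Parvg 1.18% and 52.8%. The sum itself was 36.8 and 40.1 FPKM as deposited, which depends on the scaling of the libraries.

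Of the other adaptors 1 was called higher, 1 lower and 2 lay within 2-fold. Beside the 16.8% higher and 15.5% lower of all genes tested, so few calls say little about the group. Ilk, the pseudokinase at the centre of the complex, was 52 FPKM in control against 58.2 in the library labelled knockout, a log2 difference of 0.16 that became -0.19 with both libraries brought to a sum of 1000000. Lims1, the PINCH subunit, was 73.7 and 31.9 FPKM, 2.31-fold lower (-1.18). Its paralog Lims2, which is not a member, was 2.55 and 0.359 FPKM. Tln1, the talin that activates integrins in most cells, was 55.8 and 125 FPKM, 2.24-fold higher (1.15), or 0.81 and so within 2-fold, with both libraries brought to that sum. Tln2 was 9.06 and 12.6 FPKM (0.43).

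The members were next set against marker sums of the same library, a ratio chosen after the values were seen. The ratio does not depend on the scaling of the libraries, but each sum is led by its few most abundant genes. Fermt2 was 5.86 FPKM per 100 FPKM of the summed pan-endothelial markers in control against 5.74 in the library labelled knockout. Itga1 was 1.48 and 1.35, and Itga6 7.41 and 9.63. Among the 9 members called lower, the ratio to the endothelial sum differed between the libraries by factors of 0.98 for Fermt2, 0.918 for Itga1, 1.3 for Itga6, 0.734 for Itga7 and 0.669 for Itgb8. It differed by factors of 1.68 for Parva, 1.73 for Itgb4, 1.95 for Itga8 and 2.06 for Lims1, so the 9 did not keep 1 ratio to these markers. Against the summed fibroblast markers the factors of the 9 ran from 0.6 for Itgb8 to 1.84 for Lims1. Each factor is the FPKM fold of the gene divided by the fold of the marker sum, 0.211 for endothelial and 0.235 for fibroblast markers. The 9 were picked for low folds, from 0.141 for Itgb8 to 0.433 for Lims1, which limited the factors in advance. Factors near 1 therefore restate the call, and whether these members follow endothelial content was not tested. The values do not separate an endothelial from a stromal source.

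On the same scale Itgb1 was 21.6 FPKM per 100 FPKM of endothelial markers in control against 88.6 in the library labelled knockout, 4.1-fold more. Itga9 was 1.49 and 21.2, and Itga2 1.15 and 10.7, 14.3- and 9.29-fold more. The lower endothelial sum of the library labelled knockout, 0.211-fold that of control, enters each of these 3 values. Itgb1 itself was 298 and 257 FPKM. Such ratios do not describe levels within endothelial cells. Blood cell members were set against the 6 leukocyte genes in the same way. Itgam was 7.21 FPKM per 100 FPKM of leukocyte markers in control against 5.91 in the library labelled knockout, and Fermt3 was 24.5 and 31.6. Itgb7 was 4.38 and 2.86, Parvg 9.7 and 4.24, Itgb2 10.6 and 4.03, and Itgal 2.14 and 1.1. The factor was 1.29 for Fermt3, 0.82 for Itgam and 0.653 for Itgb7, and 0.513, 0.437 and 0.381 for Itgal, Parvg and Itgb2. These factors are a description only: the genes were grouped as blood cell genes with their values known, 5 of the 6 were under 1 FPKM in control, and the leukocyte sum there was itself only 4.46 FPKM.

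**Figure D3:**
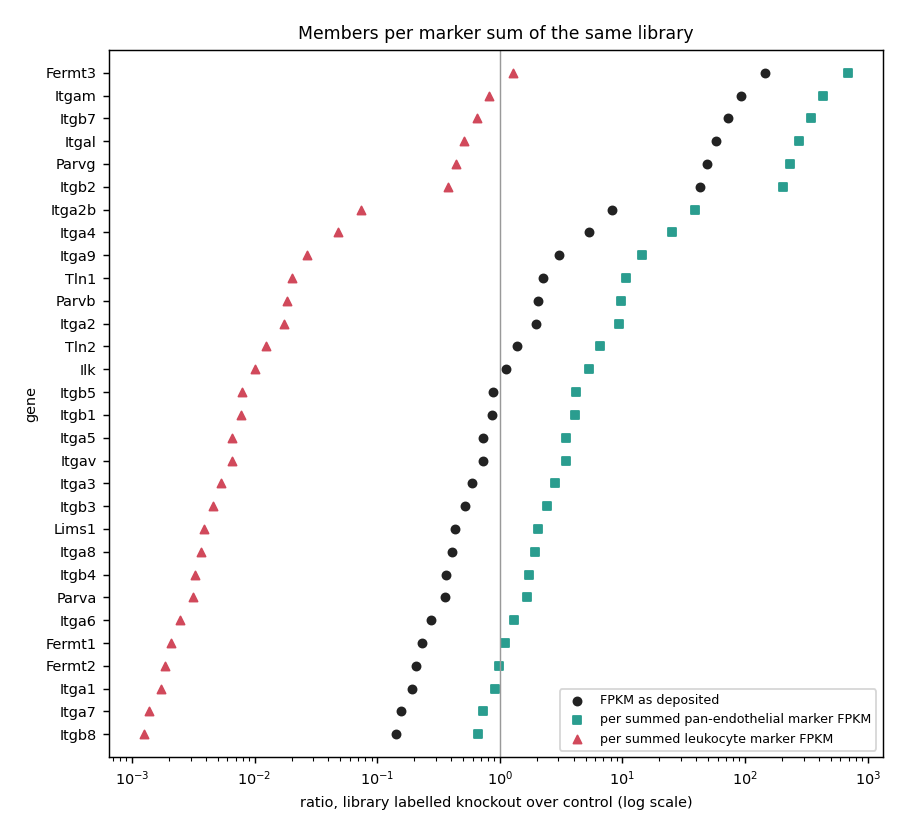
Ratio of the library labelled knockout to control for the 30 measured members, on a log axis: FPKM as deposited (circles), per summed pan-endothelial marker FPKM (squares) and per summed leukocyte marker FPKM (triangles). Each denominator shifts all genes by 1 factor; Fermt2, Itga1 and Itga6 lie near 1 per endothelial sum, while Lims1 is at 2.06; Fermt3 is at 1.29 per leukocyte sum and Itgb2 at 0.381.

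Among 17 other genes of integrin activation and inside-out signalling, 7 were called higher (41.2%) and 2 lower (11.8%). Among all genes tested 16.8% were higher and 15.5% lower. The median was 0.63, beside 0.00 for all genes. Of the higher genes Fyb, Apbb1ip, Skap1 and Dok1 were under 1 FPKM in control and passed the minimum only through the other library. Fyb, an adaptor of T cells and myeloid cells, was 0.598 FPKM in control against 48.6 in the library labelled knockout. Apbb1ip, which encodes RIAM, the link from RAP1 to talin in blood cells, was 0.661 and 13.4 FPKM. Skap2, a partner of Fyb, was 22 and 106 FPKM, and the GTPase gene Rap1b 98.4 and 263. The 2 lower genes were Kank1 (6.8 and 1.6), a relative of the talin-binding Kank2, and the RAP1 exchange factor Rapgef3 (6.19 and 1.66). Among genes at 10 FPKM or more, the talin-binding Kank2 (17 and 9.78), the filamin Flna (119 and 90) and a further RAP1 exchange factor, Rapgef1 (16.8 and 13.9), were within 2-fold.

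Of 34 focal adhesion kinases and scaffolds, 23 lay within 2-fold, 8 were called lower (23.5%) and 3 higher (8.82%), and the median was -0.43. Among all genes tested 15.5% were lower and 16.8% higher, and the median was 0.00. Cav1, the caveolar coat protein abundant in endothelium, was 822 FPKM in control against 104 in the library labelled knockout. The tensin Tns2 was 11.2 and 2.02 FPKM, the SRC family kinase Yes1 71.3 and 18.9, and Bcar1, the p130Cas scaffold, 12.6 and 4.55. The 3 higher genes were the exchange factor Arhgef6 (1.78 and 31.7 FPKM), the tyrosine kinase Syk (2.31 and 31.7) and the FAK relative Ptk2b (0.389 and 9.03), all prominent in blood cells. Tns3 (7.81 and 15.1) and Crk (41.5 and 54.6), also among the named genes, were within 2-fold and are not among the 3 higher genes. Of these 3, Ptk2b was under 1 FPKM in control and passed the minimum only through the other library. In this library the leukocyte genes were higher (6 of 6, median 5.28) and the pan-endothelial markers lower (11 of 11, median -2.39). The part of these cell types in the focal adhesion values was not tested.

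Ligands of integrins were lower on balance. Of 38 ligand genes 34 were measured, of which 15 were called lower (44.1%) and 4 higher (11.8%), and their median was -0.85. Among all genes tested 15.5% were lower and 16.8% higher, and the median was 0.00. The vascular laminin chain Lama4 was 216 FPKM in control against 42.2 in the library labelled knockout, and its partner Lamb1 160.1 and 33.4. The microfibril gene Fbn1 was 144 and 28.2 FPKM, and Icam2, an endothelial ligand of LFA-1, 84.1 and 21. The higher ligands were Spp1, Edil3 (2.75 and 10.4), Icam1 (29.4 and 88.9), the cytokine-induced ligand of the beta2 integrins, and Thbs1 (72.7 and 170.3). Spp1 was under 1 FPKM in control (0.961) and passed the minimum only through the other library. The laminin chains Lama4, Lamb1 and Lamc1 (125 and 33.6) and the laminin receptor chain Itga6 were all lower in the library labelled knockout, while fibroblast markers were lower too (median -1.94). The part of fibroblasts in these values was not tested.

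**Figure D4:**
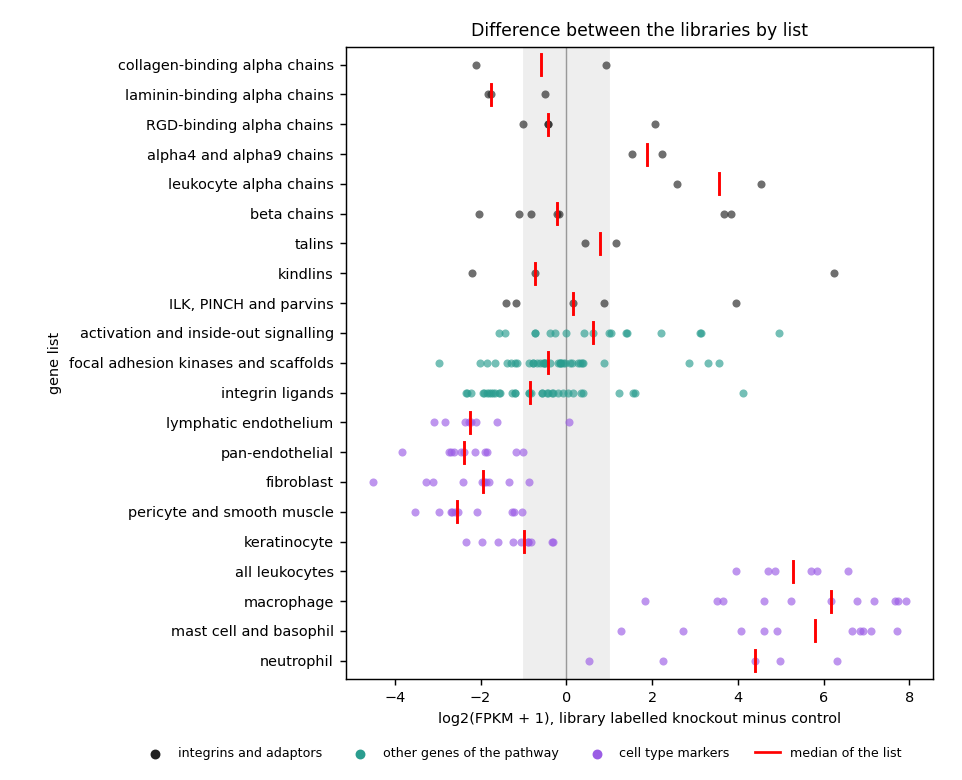
Difference in log2(FPKM + 1), library labelled knockout minus control, for each measured gene (points) of the member groups, 3 further lists of the pathway and 9 marker lists, with the median of each list as a vertical mark and the span within 2-fold shaded. Laminin-binding chains lie on the side of the endothelial and stromal markers, and leukocyte chains on the side of the leukocyte, macrophage and mast cell markers. The only measured leukocyte chains, Itgal and Itgam, were under 1 FPKM in control and passed the minimum through the other library, so their side was built in. The part of any cell type in these positions was not tested.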

How the data were processed

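The 2 deposited tables list 1 value per gene symbol, taken as FPKM made by the authors. STAR 2.5.2b, Cufflinks 2.2.1, Cuffnorm, R 3.3.2 and build mm9 are listed in the submitters' processing notes, with no roles, and the values are decimal and differ in their sums. Any scaling between libraries, like the annotation, remains not given in the sources used here. Analyses ran in Python 3.11.15 with pandas 2.3.3. The code for calls and the depth scan was also run on simulated data. That run checks the code and not the calls made here, which rest on 1 library per genotype. Differences used a pseudocount of 1, a minimum of 1 FPKM in at least 1 library and a threshold of 2-fold. Depth was estimated from values worth up to 5 fragments in genes with 1 annotated transcript of at least 2500 nt, assuming fragments of 200 nt: a whole number was met to within 0.1 by 79.5% of 132 control values and 72.3% of 148 from the other library. Fragments per gene used the longest coding transcript of GENCODE. Whole reads were not recovered, so no count model was run, and an exact 0 can be a failed estimate. All members are named; of each other pathway list, the 4 highest and 4 lowest genes at 10 FPKM or more, and of each marker list up to 3 genes, except items not reported here. A few further genes, such as Lamc1, Lims2, Spi1, Ptk2b, Kank1, Rapgef3 and ligands of alpha9, were chosen after their values were seen. Members, lists and motifs were chosen with earlier results of these data known. Promoter windows were matched for 26 of 36 members; Itga6, Itga7, Itgad, Itgae, Itgal, Itgb2, Itgb3, Itgb4, Tln2 and Parva had none.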

Additional observations from a re-analysis of the deposited data

How the results depend on the processing

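No paired analysis was possible because there was a single library for each genotype, which also left no replicate to omit. Of the 30 measured members, 18 kept their side of the threshold under every pseudocount, scaling and threshold tried. No called member changed sign; Ilk, within 2-fold, did so under 1 scaling. The 9 lower members became 5 at 3-fold. With a pseudocount of 5, Itga2b (0.98), Itga7 (-0.79), Itga8 (-0.55) and Itgb4 (-0.56) lost their call. For the activation list, the 7 higher genes became 4 at 3-fold, and the 2 lower genes became 0 with a pseudocount of 5 or at 3-fold and 4 at 1.5-fold or with both libraries brought to a sum of 1000000. The 8 lower focal adhesion genes became 13 at 1.5-fold, 4 at 3-fold and 5 with a pseudocount of 5. The 4 higher ligands became 2 at 3-fold, and the ligand median of -0.85 reached 2-fold with a pseudocount of 0.1 (-1.0), with both libraries brought to a sum of 1000000 (-1.27) and with a minimum of 5 FPKM (-1.04). The median of the members was 0.16 with a minimum of 5 FPKM and -0.47 without the blood cell genes. Multiplied by transcript length, the share of Itga1 in control was 17.4% in place of 9.31%, and that of Itga6 in the library labelled knockout 8.02% in place of 12.1%. At the estimated depth the control values of the blood cell genes rest on about 5 to 27 fragments, or on none.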
